A study of Mus musculus with 2 samples.

Results

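The cells described here are a small group of Lyz2-positive myeloid cells of the mouse colon that carried transcripts of Retnla, Ccl24, Lpl or Pf4 and little or no C1q. They were chosen by the measured values of these and a few other genes in each cell. A cell needed at least 5 unique molecular identifiers (UMIs, each standing for 1 captured transcript molecule) summed over Ccl24, Retnla, Lpl and Pf4, and at least 3 UMIs of Lyz2. C1qa, C1qb and C1qc had to make up less than 0.2% of its UMIs, Cd3e, Cd3d, Cd79a and Xcr1 had to be at 0, and Cd209a, Mgl2 and Clec10a had to sum to less than 5 UMIs. The rule took 54 of 5111 cells, and they are called C1q-low cells below. The levels of these genes chose the cells and are therefore given as a description, with no test.

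The cells came from a study of how loss of a long non-coding RNA changes colon macrophages, in which cd11b+ cells of the gut lamina propria were sorted and sequenced with the 10x Genomics 3' chemistry. The wild-type (WT) library came from C57BL/6 mice, and the other library from mice on a C57BL/6J background with a knockout of LncRNA17Rik (KO), which the study calls lncLy6c and removed with CRISPR-Cas9 cuts on either side of its exons. The study pooled young adult male mice for each library, and no treatment is named for either. With 1 library for each genotype there was no test between genotypes, no p-value was computed, and the intervals below cover counting error only.

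In total, 22191774 UMIs over 3185 barcodes were deposited for WT and 23384895 over 3020 for KO. After removal of barcodes with fewer than 200 or more than 6000 genes or over 15% mitochondrial UMIs, 2597 WT and 2514 KO cells remained, with medians of 5073 and 6564.5 UMIs. The libraries shared 1 cell barcode, which was in no C1q-low cell. The level of the deleted RNA was not analysed here, since its label names no single feature.

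Macrophages of the gut wall are for the most part renewed by Ly6c-high blood monocytes, which lose Ly6c2 and gain MHC class II, C1q and Apoe as they mature. Retnla encodes RELMα, a secreted protein induced by the interleukin-4 and interleukin-13 pathway through the transcription factor STAT6, and Ccl24 encodes eotaxin-2, a chemokine for eosinophils. Lpl encodes lipoprotein lipase, which releases fatty acids from triglyceride-rich particles, Pf4 encodes the chemokine platelet factor 4, and Fn1 encodes the matrix protein fibronectin. Retnla and Fn1 are also known from macrophages of serosal cavities.

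On the mm10 assembly (GRCm38), Retnla (ENSMUSG00000061100) is a protein-coding gene on the plus strand at chr16:48842551-48844461 and Lpl (ENSMUSG00000015568) is one on the plus strand at chr8:68880491-68907448. Ccl24 (ENSMUSG00000004814) lies on the minus strand at chr5:135569937-135573049 and Pf4 (ENSMUSG00000029373) on the plus strand at chr5:90772435-90773383. A stretch of the Retnla promoter is shown because the C1q-low cells are divided by Retnla below, and because its induction through STAT6 and C/EBP factors is known. The stretch covers chr16:48842459-48842488 on the plus strand (RefSeq, GRCm38.p6). Capitals mark the STAT6 letters TTCNNNNGAA, 145 to 136 bases before the RefSeq start, and the C/EBP letters TTGCNNAA, 134 to 127 bases before it, with 1 base between them.
Retnla: cataaTTCACAAGAAaTTGCTAAAcagtac
Both strands were searched from 250 bases before to 50 bases after each start. The STAT6 letters were in 8.01% of the windows of 27025 genes, the C/EBP letters in 12.2% and both in 1.20%. Of 7 genes looked for in that table, 4 had a window, with the STAT6 letters in that of Retnla and the C/EBP letters in those of Retnla and Pf4. These are matches of letters, and no binding was measured.

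The C1q-low cells made up 19 of 2597 WT cells, a share of 0.732% (exact Clopper-Pearson 95% interval 0.441 to 1.14), and 35 of 2514 KO cells, a share of 1.39% (0.972 to 1.93). The KO to WT ratio of the shares was 0.93 on the log2 scale (exact conditional binomial interval 0.08 to 1.82). Since the rule counts UMIs and the KO library was deeper, each cell was also thinned to 2000 UMIs before the rule was applied, which left 8 WT and 24 KO cells and a log2 ratio of 1.60. The share depended on the thresholds. A sum of 5 or 6 UMIs put 5 WT and 4 KO cells just inside the rule, and 17 WT and 10 KO cells with a sum of 3 or 4 lay just outside it. With a minimum of 3 UMIs the log2 ratio was 0.37. The C1q limit shut out 32 WT and 58 KO cells that met every other criterion, and the limit on Cd209a, Mgl2 and Clec10a shut out 4 WT and 21 KO cells.

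**Figure D1:**
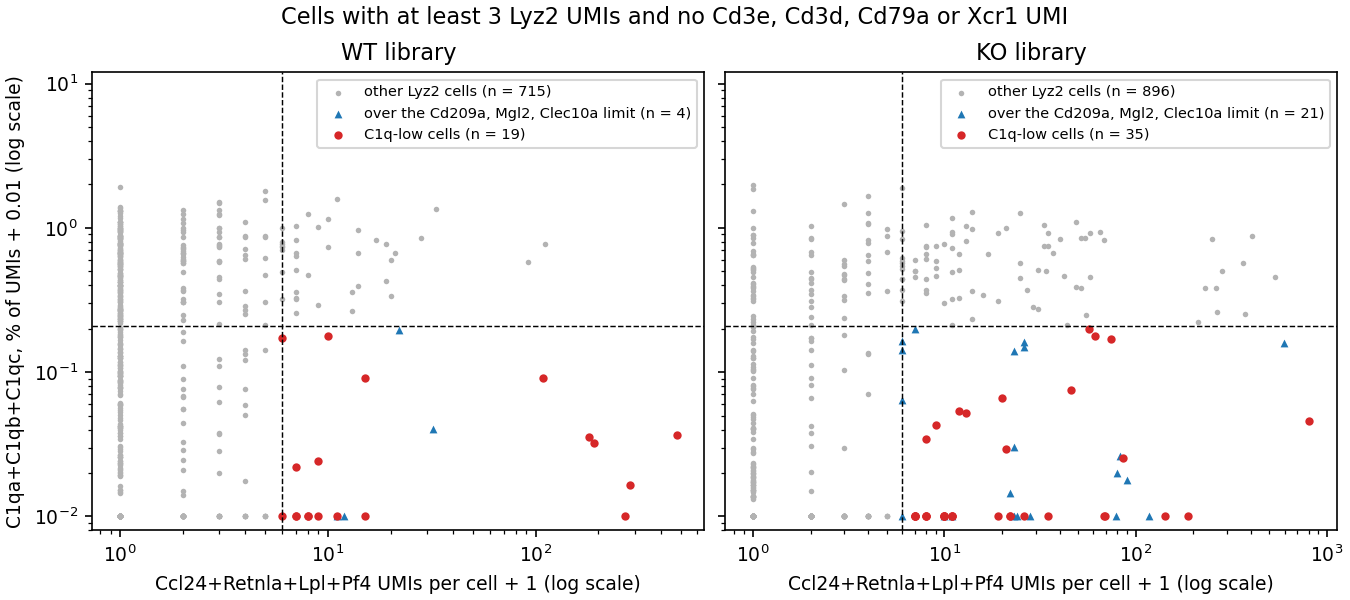
Each point is a cell with at least 3 Lyz2 UMIs and no Cd3e, Cd3d, Cd79a or Xcr1 UMI, with the summed UMIs of Ccl24, Retnla, Lpl and Pf4 plus 1 on the x axis and the percent of UMIs from C1qa, C1qb and C1qc plus 0.01 on the y axis, both on log scales. Dashed lines mark 5 UMIs and 0.2%. The 19 WT and 35 KO C1q-low cells (red) lie right of and below the lines together with 4 WT and 21 KO cells over the limit on Cd209a, Mgl2 and Clec10a (blue), while the other cells lie left of the first line, above the second or both.

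A profile of Retnla, Ccl24, Lpl and Pf4 in the same cell was not what most of the C1q-low cells had. Lpl was the gene they shared. It had a UMI in 18 of 19 WT cells, with a median of 8 UMIs and a maximum of 52, and in 32 of 35 KO cells, with a median of 7 and a maximum of 156. Retnla had a UMI in 5 WT and 14 KO cells, Ccl24 in 3 and 6, and Pf4 in 2 and 7. All 4 genes were found together in 1 cell, a KO cell, while 29 of the 54 cells had UMIs of only 1 of the 4 genes, and in 25 of these it was Lpl. The sum was between 5 and 9 UMIs in 23 cells. When Lpl was left out of the sum, 6 WT and 16 KO cells still met the rule. The name Retnla Ccl24 Lpl Pf4 macrophages therefore fitted few of the cells, and no other cell type name is given to them.

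A few cells held most UMIs of Ccl24 and Pf4 and, in KO, of Retnla. In WT, 107 of the 109 Ccl24 UMIs came from 1 cell, and in KO, 183 of 230 did (79.6%). For Retnla, 651 of the 1011 KO UMIs came from 1 cell (64.4%), whereas the 5 WT cells held 167, 172, 216, 265 and 442 UMIs. The Pf4 UMIs of KO cells numbered 71, of which 35 were in 1 cell and 21 in another, and WT cells held 2 in all. Lpl was spread more evenly, with 26.7% of the KO and 22.3% of the WT UMIs in the highest cell.

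Fn1 and Ccr2 were common in the C1q-low cells although the rule did not use them. Fn1 had a UMI in 14 of 19 WT and 32 of 35 KO cells, and Ccr2, the receptor that brings monocytes out of the marrow and into tissue, in 17 and 33. Pooled over the cells of a library, Fn1 stood at 1999 UMIs per 1000000 UMIs (CPM) in WT and 3213 in KO, and Ccr2 at 959 and 706. Fn1 ranged from 0 to 66 UMIs between WT cells and from 0 to 187 between KO cells, so its level varied widely from cell to cell. Neither gene was particular to these cells. Fn1 had a UMI in 73.7% of WT and 91.4% of KO C1q-low cells, and Ccr2 in 89.5% and 94.3%. In the Ly6c2 monocytes defined below, Fn1 had a UMI in 44.9% and 84.9% of cells and Ccr2 in 94.1% and 90.7%. In the C1q macrophages, Fn1 had one in 16.7% and 29.8% and Ccr2 in 76.2% and 57.8%. T cells, taken as cells with a Cd3e UMI, served as a background for transcripts not made by the cell itself. They had a UMI of Fn1 in 1.97% of WT and 5.56% of KO cells, of Retnla in 0.985% and 1.11%, of Lpl in 2.46% and 1.11%, and of Pf4 in 0.985% and 7.78%, at medians of 5222 and 6298.5 UMIs. The highest T cell held 8 Lpl UMIs in WT and 36 Pf4 UMIs in KO, both above the 5 UMIs of the rule. C1q-low cells had a Pf4 UMI in 10.5% of WT cells (1.30 to 33.1) and 20.0% of KO cells (8.44 to 36.9), and the lower bounds of these intervals lay close to that background.

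**Figure D2:**
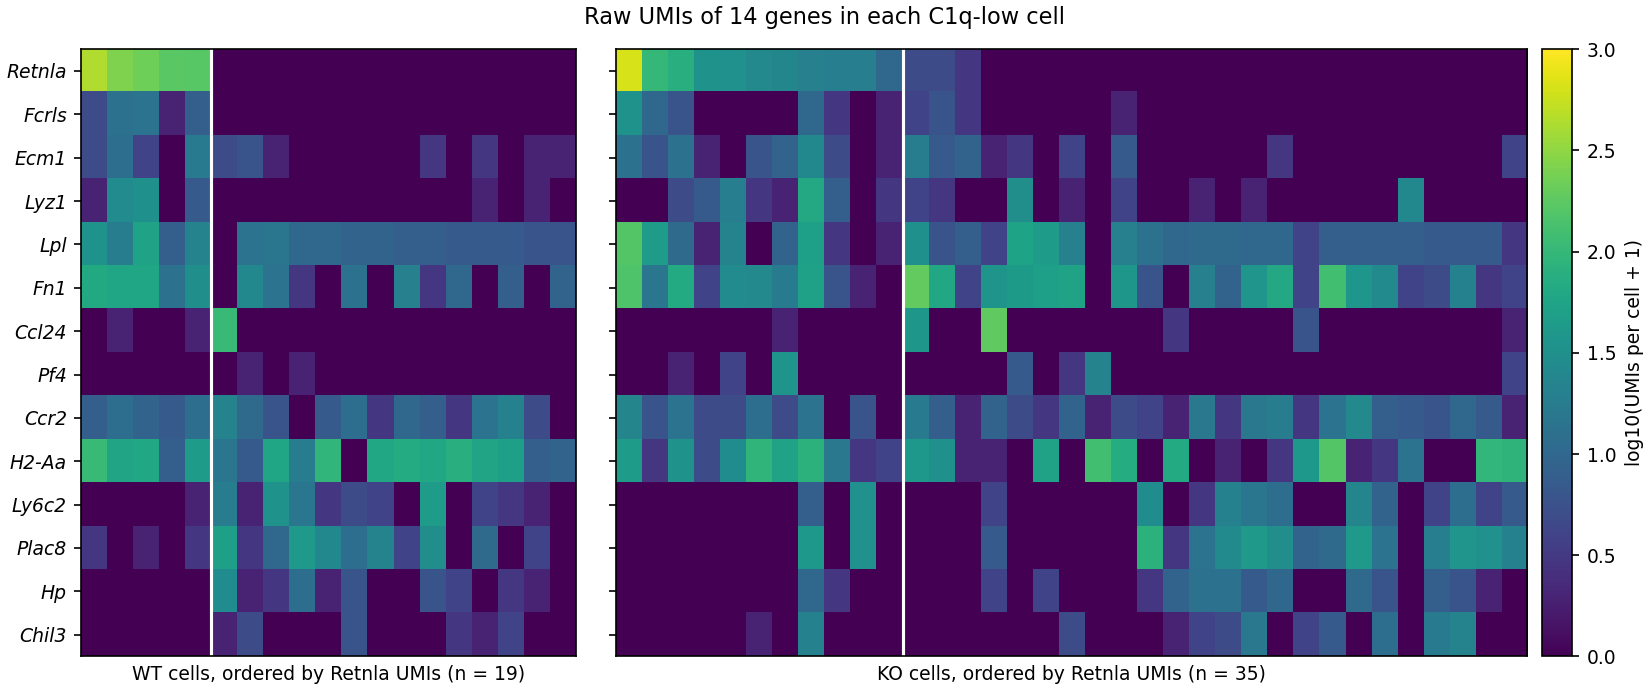
Raw UMIs of 14 genes (rows) in each of the 19 WT and 35 KO C1q-low cells (columns, ordered by Retnla), coloured by log10(UMIs + 1). The white line divides cells with at least 5 Retnla UMIs, 5 in WT and 11 in KO, from the others. Cells with Fcrls lie mostly left of the line and cells with Ly6c2, Plac8 or Hp mostly right of it, while Lpl, Ccr2 and Ecm1 are found on both sides.

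Retnla divided the C1q-low cells. This split was chosen after the values had been seen and carries no test. Cells with at least 5 Retnla UMIs, called Retnla-bearing below, numbered 16 (5 WT and 11 KO), and the other C1q-low cells numbered 38 (14 WT and 24 KO). Over 1619 genes with enough UMIs, 61 were at least 2-fold higher in the Retnla-bearing cells (3.77%) and 124 at least 2-fold lower (7.66%), with 10 CPM added to both sides. In each library taken alone, 25 of the former and 71 of the latter passed the same limit. The 61 include Retnla, Lpl and Pf4 and the 124 include Ccl24, which are genes of the rule. Apart from Retnla itself, the highest ratio was that of Fcrls, which encodes an Fc receptor-like scavenger receptor and lies at chr3:87250758-87263738 on the minus strand. It was at 743 CPM in WT Retnla-bearing cells and had no UMI in the other WT cells, and it was at 592 against 41.2 CPM in KO. It had a UMI in 11 of 16 Retnla-bearing cells and in 4 of the 38 others.

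Other genes higher in Retnla-bearing cells were Ecm1, which encodes a secreted matrix protein, Fgfr1, a growth factor receptor, Cfp, which encodes properdin of the complement system, and Cd81, a tetraspanin. Ecm1 stood at 709 against 170 CPM and had a UMI in 13 of 16 against 16 of 38 cells. Fgfr1 stood at 261 against 37.1 CPM, and Cfp at 615 against 127. The mannose receptor gene Mrc1 was at 301 against 98.1 CPM, and the phospholipid transfer gene Pltp at 515 against 170, but Mrc1 in WT (261 against 173) and Pltp in KO (291 against 161) did not differ by 2-fold. Lyz1 was at 1130 against 175 CPM, but it is a close copy of Lyz2, so reads may be split between the pair. Lyz2 itself was at 8916 against 11977 CPM. Lpl was at 2816 against 1050 CPM, although the sum in the rule uses both Lpl and Retnla.

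Of 12 monocyte genes measured in this split, 6 were at least 2-fold lower in Retnla-bearing cells and none higher, with a median log2 ratio of -1.04 beside -0.08 over all genes. Those lower included Ly6c2, Plac8, Hp, Ms4a4c and Clec4e. F10 was at 334 against 560 CPM and Ccr2 at 829 against 764, and neither differed by 2-fold. The list of 15 monocyte genes summed to 7389 against 11147 CPM in WT and 8555 against 10657 in KO. Ly6c2, the classical monocyte marker, had a UMI in 3 of 16 Retnla-bearing cells and in 23 of the 38 others. In WT it was at 20.1 against 1138 CPM, whereas in KO it was at 391 (278 to 535) against 490 (410 to 582), with 39 UMIs in 2 Retnla-bearing cells. Plac8, another gene of blood monocytes, had a UMI in 5 and 26 cells. In WT Plac8 was at 100 against 1830 CPM. In KO it was at 712 against 1411, short of the 2-fold limit, with 71 UMIs in 2 Retnla-bearing cells. The haptoglobin gene Hp stood at 73.6 against 377 CPM. Of 9 cytokines and growth factors measured, 7 were lower (Tnf, Osm, Il1a, Il10, Il1b, Il6 and Tnfsf9) and none higher, with a median of -1.49. Over all genes of the split, 3.77% were higher and 7.66% lower. Tnf was at 140 against 955 CPM and Il1b at 1177 against 3318, and these encode inflammatory cytokines. Inhba, which encodes a subunit of activin A, had 0 UMIs in the Retnla-bearing cells and 153 in the others, though 1 KO cell gave 84.1% of its KO UMIs. The interferon-induced gene Rsad2 had 0 UMIs in Retnla-bearing cells and 114 in the others, and Ms4a4c had 1 and 108. Ccl24 was at 20.1 against 891 CPM, but the sum in the rule uses both Ccl24 and Retnla, and most of its UMIs were in the 1 cell of each library given above. Of 6 MHC class II genes measured, 1, H2-DMb1, was at least 2-fold higher in Retnla-bearing cells over both libraries and none lower, with a median log2 ratio of 0.45. H2-DMb1 stood at 783 against 437 CPM in WT and 612 against 266 in KO. H2-Ab1 stood at 4669 against 3209 CPM and H2-Aa at 4207 against 3607. The median share of UMIs from MHC class II genes was 2.27% against 2.41% in WT and 1.88% against 0.556% in KO.

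**Figure D3:**
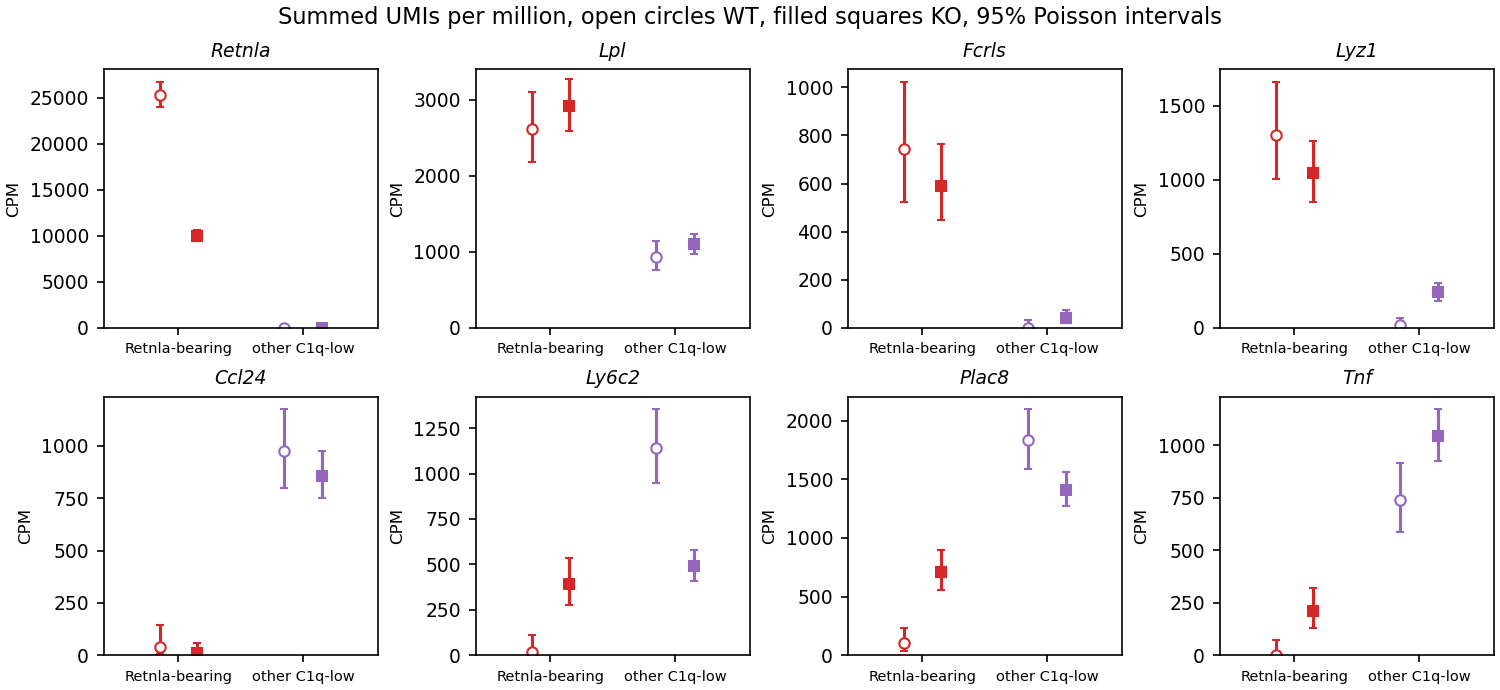
Counts per 1000000 UMIs (CPM) for 8 genes in Retnla-bearing cells (red) and other C1q-low cells (purple), WT as open circles and KO as filled squares, with exact Poisson 95% intervals. Fcrls and Lyz1 are higher and Plac8 and Tnf lower in Retnla-bearing cells of both libraries, and the intervals of Ly6c2 overlap in KO. Retnla, Lpl and Ccl24 were used by the rule.

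The split was also made at 3 and at 10 Retnla UMIs. Fcrls was at 580 against 8.64 CPM with the lower limit and at 646 against 31.6 with the higher one, and Ly6c2 at 223 against 737 and at 272 against 675. The Retnla-bearing cells were not shallower or deeper in the same way in both libraries, with median totals of 10062 against 7472.5 UMIs in WT and 8155 against 10947 in KO. The KO C1q-low cells were divided in MHC class II as well. The 14 KO cells with a Ly6c2 UMI had a median of 0.0838% of UMIs from MHC class II genes and all had a Plac8 UMI, whereas the 21 without Ly6c2 had a median of 1.88% and 3 had Plac8. In WT, the medians were 2.15% in 12 cells with and 2.76% in 7 cells without Ly6c2.

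Most cells with Retnla were not C1q-low cells. Of 30 WT cells with at least 5 Retnla UMIs, 5 were C1q-low cells, 6 were C1q macrophages and 14 had fewer than 3 Lyz2 UMIs. Of 70 KO cells, 11 were C1q-low cells, 19 were C1q macrophages, 11 were over the limit on Cd209a, Mgl2 and Clec10a, and 28 had fewer than 3 Lyz2 UMIs. The C1q-low cells gave 71.0% of all WT Retnla UMIs and 16.8% of the KO ones. Pf4 was chiefly a transcript of C1q macrophages, which gave 80.1% of its WT and 78.8% of its KO UMIs. The 21 KO cells that the limit on Cd209a, Mgl2 and Clec10a shut out had Fn1 at 1893 CPM, Fcrls at 215 and Ecm1 at 308. KO C1q-low cells had these genes at 3213, 191 and 327 CPM. Retnla was at 2815 CPM in the 21 cells, but the sum in the rule, which they also had to pass, uses Retnla. Their H2-Aa level was higher, at 7307 against 3115 CPM.

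The C1q-low cells of the KO library were compared with 161 KO C1q macrophages, which had at least 3 Lyz2 UMIs, C1q at 0.2% or more and none of the lymphoid genes. Median depth was 10528 UMIs in C1q-low cells and 9713 in the macrophages. Of 4348 genes, 145 were at least 2-fold higher (3.33%) and 234 at least 2-fold lower (5.38%) in the C1q-low cells. These counts include genes that chose the cells, such as Lpl and Ccl24 (higher) and C1qa, C1qb and C1qc (lower). Genes of the rule are left out of those named next. The 12 genes with the highest ratio included Ly6c2, Hp, Plac8, Chil3, Inhba, Mgst1, Slpi, Fn1, Ifitm6, F10 and AA467197, and all 12 were also higher in WT. Inhba had a UMI in 5 of the 35 KO C1q-low cells, and without the cell that held 84.1% of its UMIs it stood at 50.96 against 26.9 CPM, a log2 ratio with 10 CPM added of 0.72. The 12 with the lowest were Mmp13, Ccl12, Ms4a7, Dnase1l3, S100a9, Pmepa1, Itga9, Cd72, Pxdc1, Plau, Apoe and Stab1, and these were lower in WT too. S100a9, a neutrophil gene, rested on 1 macrophage in which neutrophil marker genes made up over 1% of UMIs and which held 91.4% of the S100a9 UMIs. Without that cell its log2 ratio with 10 CPM added was -0.39, where it had been -3.34. The WT values rest on 19 cells. Leaving out, for each gene, the KO C1q-low cell with most of its UMIs was chosen after the data were seen. It took Inhba, and among the list genes below Cxcl9, Fcrls, Ms4a4c, Thbs1, Ccl6 and Clec4e, under the 2-fold limit.

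Genes of blood monocytes led the higher group. In KO, Ly6c2 stood at 463 CPM in C1q-low cells and 12.6 in C1q macrophages, and in WT at 789 and 293. Ly6c2 has a near-identical neighbour, Ly6c1, so its reads are uncertain between them. Plac8 stood at 1221 against 77.2 CPM in KO and 1291 against 611 in WT. Of the 13 monocyte genes measured in this comparison, 10 were at least 2-fold higher and none lower, with a median log2 ratio of 1.60 beside 0.11 over all genes. Ly6c2 was uneven among the C1q-low cells, since 14 of 35 KO cells had a UMI.

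Fibronectin and clotting genes were higher as well. Fn1 was at 3213 CPM in KO C1q-low cells and 518 in C1q macrophages, with 2.63 (2.51 to 2.76) as the log2 ratio, while WT stood at 1999 and 83.9. F10, which encodes coagulation factor X, was at 567 against 93.9 CPM in KO and 332 against 58.0 in WT, and F13a1, the factor XIII A subunit, at 420 against 132 in KO. Of 19 matrix and coagulation genes, 6 were higher (Fn1, F10, F13a1, Mmp19, Emilin2 and Thbs1) and 5 lower (Plau, Mmp12, Sdc4, Timp2 and Mmp14). Over all genes, 3.33% were higher and 5.38% lower. The list thus moved in both directions. The collagenase gene Mmp13, which was not on it, had 0 UMIs in KO C1q-low cells against 852 in C1q macrophages, with an upper bound of -5.66 for the log2 ratio.

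Resident macrophage genes were low. Apoe was at 1106 CPM in KO C1q-low cells and 8384 in C1q macrophages, and at 1811 and 7758 in WT. Of the 16 resident macrophage genes measured, 11 were at least 2-fold lower and none higher, with a median of -1.70. Among them were Lyve1, Folr2 and Cd4 with 0 UMIs, Mrc1 at 136 against 474 CPM and Selenop at 251 against 909. MHC class II genes followed, with 5 of 7 lower, H2-Aa at 3115 against 9106 CPM and Cd74, the invariant chain, at 8764 against 24425. In WT, H2-Aa stood at 5300 against 8983 CPM. Over all genes of the KO comparison, 3.33% were higher and 5.38% lower.

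Most of the chemokines that differed were also lower. Of 16 measured, 8 were lower and 2, Cxcl9 and Ccl6, were higher, though 92.3% of the Cxcl9 UMIs came from 1 cell. Ccl4, which draws T cells and monocytes, was at 1300 CPM against 7389 in KO C1q macrophages, and Ccl3 at 621 against 1944. Ccl6 was at 1521 against 688 CPM. Of 10 genes of alternative activation, 4 were lower (Stab1, Mrc1, Ccl22 and Ccl17) and 1, Chil3, was higher. Of 16 lipid handling genes, Apoe and Fabp4 were lower, and the median log2 ratio was 0.13 beside 0.11 over all genes. Of 18 cytokines and growth factors, Il6 was higher and 6 were lower, with a median log2 ratio of -0.61. Of 19 cytokine receptors 3 were lower and none higher, with a median of -0.03. The medians of the chemokine and alternative activation lists were -0.96 and -0.86. Over all genes, 3.33% were higher and 5.38% lower, and the median was 0.11.

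The comparison with 172 Ly6c2 monocytes of the KO library used cells with at least 3 Lyz2 and 3 Ly6c2 UMIs, low C1q, a sum of the 4 genes under 5 UMIs, and the same limits on lymphoid and dendritic cell genes. Their median depth was 10446 UMIs. Of 4354 genes, 106 were at least 2-fold higher in C1q-low cells (2.43%) and 129 at least 2-fold lower (2.96%). The 106 include Retnla, Ccl24, Lpl and Pf4, which chose the cells and are left out of the genes named next. The 12 highest were Lyz1, Fcrls, Ecm1, Cd81, Cd36, H2-Eb1, Itgax, H2-Ab1, H2-Aa, Mrc1, Pltp and Dok2. The 12 lowest were S100a8, S100a9, Ace, Treml4, Vegfa, Csf3, Gcnt2, Ly6c2, Spic, Hdc, Tlr7 and Rsad2, of which Ly6c2 was set by the choice of the monocytes. In WT, 11 of the former and 10 of the latter had the same direction. Without the C1q-low cell with most UMIs of the gene, none of these 24 fell under the 2-fold limit, but of the list genes named below Mmp14 and Egr2 did.

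Fcrls, Ecm1 and Lyz1 set the C1q-low cells apart from monocytes in both libraries. Fcrls had 70 UMIs in KO C1q-low cells, 47.1% of them in 1 cell, and 0 in the monocytes, with a lower bound of 6.48 for the log2 ratio. In WT it had 37 and 1. It had a UMI in 28.6% of KO C1q-low cells (17.1% at 2000 UMIs a cell) and in 31.7% of KO C1q macrophages (13.3%). Ecm1 was at 327 against 12.4 CPM in KO and 313 against 60.9 in WT. Lyz1 stood at 458 against 7.91 CPM in KO and 420 against 9.24 in WT. KO C1q macrophages had Ecm1 at 219 and Lyz1 at 273 CPM, less than 2-fold below the C1q-low cells. Without the cell with most of its UMIs, Lyz1 was at 303 CPM in KO C1q-low cells. As given above, Fcrls, Ecm1 and Lyz1 came mostly from the Retnla-bearing cells. Cd36, a scavenger receptor for fatty acids and oxidised lipoproteins, was at 226 against 17.0 CPM in KO and 75.2 against 7.70 in WT. In KO C1q macrophages Cd36 was at 236 CPM, near the level of the C1q-low cells. Fn1 was also higher than in monocytes, at 3213 against 923 CPM in KO and 1999 against 330 in WT.

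Summed over the cells, MHC class II genes were higher than in monocytes in KO and closer to them in WT. The KO C1q-low cells were uneven, since the median share of UMIs from MHC class II genes was 0.0838% in the 14 with Ly6c2 and 1.88% in the 21 without. Over the list of 7 MHC class II genes, which is not the same set, the median share was 1.75% in KO C1q-low cells and 0.0965% in KO monocytes. H2-Aa was at 3115 CPM in KO C1q-low cells and 505 in KO monocytes, which differ by 2.63 (2.50 to 2.75) on the log2 scale, and the WT levels were 5300 and 4741. Of the C1q-low cells, C1q macrophages and monocytes of both libraries, the KO monocytes had the lowest H2-Aa level. H2-Eb1 was at 2316 against 306 CPM in KO and 3145 against 2484 in WT. Of 6 MHC class II genes measured in KO, 5 were higher and none lower, with a median log2 ratio of 2.46 beside -0.01 over all genes. Whether the libraries differ in this ratio was not tested. Itgax, which encodes CD11c, was at 153 against 12.4 CPM in KO but at 56.4 against 75.5 in WT.

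**Figure D4:**
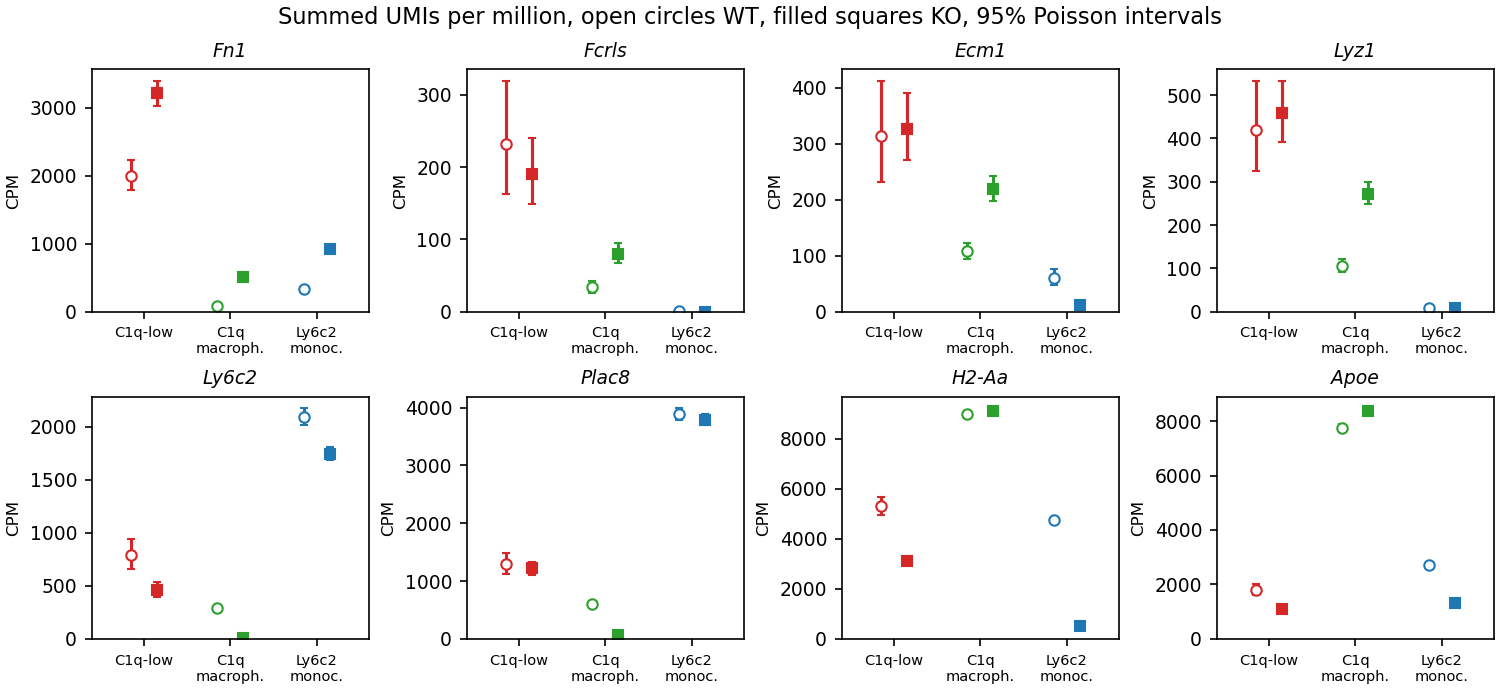
Counts per 1000000 UMIs (CPM) for 8 genes in C1q-low cells (red), C1q macrophages (green) and Ly6c2 monocytes (blue), WT as open circles and KO as filled squares, with exact Poisson 95% intervals. Fn1, Fcrls, Ecm1 and Lyz1 are highest in C1q-low cells of both libraries, Ly6c2 and Plac8 lie between the macrophages and the monocytes, and H2-Aa is lowest in KO monocytes. In KO, Ecm1 and Lyz1 differ by less than 2-fold between C1q-low cells and C1q macrophages.

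Of 15 monocyte genes, 6 were lower than in KO monocytes (Ly6c2, Plac8, Ms4a4c, Cd177, Vcan and Chil3) and none higher, though Ly6c2 was set by the choice of the monocytes, and Ccr2 stood at 706 against 619 CPM. Plac8 stood at 1221 against 3789 CPM in KO, a sum over the 14 C1q-low cells with Ly6c2, which all had Plac8, and the 21 without, of which 3 had it. Of 11 resident macrophage genes, Cd81, Mrc1, Cd63 and Axl were higher and none lower, with Cd81 at 128 against 3.96 CPM. KO C1q macrophages had Cd81 at 487 CPM. Of 19 matrix and coagulation genes, 6 were higher (Ecm1, Mmp12, Fn1, Mmp19, Mmp14 and Sdc4) and 2 lower (Vcan and Thbs1). Of 17 genes that rise during cell isolation, none differed by 2-fold in either direction. Over all genes of this comparison, 2.43% were higher and 2.96% lower.

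Neutrophil transcripts touch the S100a8 and S100a9 values. S100a8 had 3 UMIs in KO C1q-low cells and 2022 in the monocytes. In 6 of the 172 monocytes, neutrophil marker genes made up over 1% of UMIs, and these 6 cells held 96.9% of the S100a8 and 96.5% of the S100a9 UMIs. Without them the log2 ratios with 10 CPM added were -1.35 and -1.43, where they had been -5.99 and -5.93.

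Among 22 transcription factors measured against C1q macrophages, Nr4a1 and Cebpb were higher and Runx3 lower, beside 3.33% of all genes higher and 5.38% lower. Among 23 measured against monocytes, Irf4, Batf3 and Egr2 were higher and Spic and Id3 lower, beside 2.43% and 2.96% of all genes. Runx3, which the study followed, stood at 68.1 CPM in KO C1q-low cells, 154 in C1q macrophages and 94.97 in monocytes, and at 200.5, 273 and 277 in WT. Nr4a1, an immediate-early nuclear receptor, stood at 335, 143 and 326 CPM in KO and at 251, 282 and 389 in WT, so the higher level than in C1q macrophages was seen in KO and not in WT. Nr4a1 is also a gene that rises during cell isolation, and the 17 genes of that list summed to 12138 CPM in KO C1q-low cells and 14790 in C1q macrophages. The part of cell isolation in Nr4a1 was not tested. Zfp36, an mRNA decay factor, was at 1180, 1264 and 1412 CPM in KO.

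The 4 T and NK cell genes had 0 UMIs in both libraries, with upper Poisson bounds of 23.1 CPM in WT and 10.1 in KO, though the rule fixes Cd3e and Cd3d at 0. Of 7 platelet genes, Clec1b had 1 UMI in WT and 2 in KO, and Itga2b, Gp9, Gp1bb, Ppbp, Treml1 and Tubb1 were at 0. The 7 genes of large peritoneal macrophages summed to 18.8 CPM in WT (3.88 to 54.9) and 46.3 in KO C1q-low cells (27.0 to 74.2), beside 40.8 and 26.7 over all cells, with Gata6, Prg4 and Naip1 at 0 in both libraries. The 6 genes of alveolar macrophages, which include the monocyte gene Chil3, summed to 100.2 and 294 CPM, beside 62.4 and 108 over all cells, with Marco, Ear1 and Krt79 at 0. The 5 eosinophil genes summed to 12.5 and 13.6 CPM, with Epx, Prg2 and Il5ra at 0, and the 7 neutrophil genes to 107 and 131 CPM, beside 557 and 3013 over all cells, with Ngp and Ly6g at 0. Of the 6 genes of small peritoneal or serosal macrophages, Retnla was used by the rule. The other 5 summed to 2393 CPM in WT and 3537 in KO C1q-low cells, beside 187 and 733 in C1q macrophages, and Fn1 gave 319 of the 382 WT and 1179 of the 1298 KO UMIs. Of these genes, 4 had enough UMIs to compare with C1q macrophages, and Fn1 and Fcrls were higher, beside 3.33% of all genes. Without the cell that held 47.1% of its KO UMIs, Fcrls was at 104.8 against 80.1 CPM, under the 2-fold limit, and it had a UMI in 28.6% of C1q-low cells and 31.7% of C1q macrophages. Dendritic cell genes summed to 188 CPM in WT and 70.9 in KO C1q-low cells, beside 506 and 915 over all cells, but their level was held down by the rule. Of the C1q-low cells, 0 WT and 1 KO cells were among the 3% with the highest Scrublet doublet scores, and Scrublet itself called under 0.5% of cells and had not worked.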

How the data were processed

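The authors deposited raw UMI counts, 1 value for each gene and barcode. The file headers name Cell Ranger 3.0.2, and the submitters' processing notes name Seurat 4 and mm10. The study's cell filter was applied. The rule, the comparison groups and the gene lists were chosen with earlier results of these data known.

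UMIs were summed over the cells of a group and given as CPM of all UMIs (Python 3.11.15, scanpy 1.11.5, scipy 1.17.1), with exact Poisson, Clopper-Pearson or conditional binomial 95% intervals. Ratios given with an interval carry no added counts. A gene other than a mitochondrial one was measured with at least 50 UMIs over both groups. It was called with a log2 ratio of at least 1 in size after adding 10 CPM. Named genes were those of the rule and the lists, and the 12 highest and 12 lowest per KO comparison without mitochondrial and rule genes. Only these 12 highest and 12 lowest also needed a UMI in 10% of cells of the higher group. For shares of cells, cells were also thinned to 2000 UMIs. Doublets were not removed. The procedure was tested on simulated data. These were Poisson counts of pooled groups with no differences between cells. The simulation therefore cannot show how calls and intervals hold where 1 cell has most UMIs of a gene. The planned KO against WT comparison of genes was not made, since WT held fewer than the 20 cells set for it. Some named genes are not reported here.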

Additional observations from a re-analysis of the deposited data

Results flagged for a closer look

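Spic and Rsad2 had opposite directions in the libraries when C1q-low cells were set against Ly6c2 monocytes, and the difference was not tested. The log2 ratio of Spic (10 CPM added) was 1.74 in WT and -1.86 in KO, from 14 UMIs in WT C1q-low cells and 1 in KO. The log2 ratio of Rsad2 was 1.56 in WT and -1.67 in KO, from 85 and 29 UMIs. Among the 506 KO barcodes that the cell filter removed, 6 met every other criterion for C1q-low cells, as did 2 of the 588 removed in WT.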

How the results depend on the processing

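No paired analysis was possible because each genotype had 1 library. The limits are the 54 cells, the few cells that hold most UMIs of Retnla, Ccl24 and Pf4, and the lack of replicates. The share of WT cells was 1.39% with a minimum of 3 UMIs, 0.347% with 10, 1.19% with a C1q limit of 0.5% and 0.231% without Lpl in the sum. The KO share was 0.875% with a minimum of 10 UMIs, 2.35% with a C1q limit of 0.5%, 2.23% with no limit on Cd209a, Mgl2 and Clec10a and 0.636% without Lpl. The log2 ratio of the shares was positive under every alternative run. With a prior of 1 CPM, 241 genes were higher than in C1q macrophages, and 171 were higher and 203 lower than in monocytes, with 1 lipid handling and 1 resident macrophage gene lower. With a minimum of 20 UMIs, 237 were higher and 359 lower than in C1q macrophages and 203 higher than in monocytes. With 200 UMIs these were 47 and 88, and 23 higher and 51 lower than in monocytes. With the mean of per-cell CPM, 5 cytokine receptors were lower than in C1q macrophages, 1 transcription factor and 0 stress genes were higher, and 0 chemokines were higher and 2 lower than in monocytes. With members of at least 10 UMIs, 168 genes were higher and 252 lower than in monocytes. The WT library, whose 19 cells fell short of the 20 set earlier, was used as an alternative added after the data were seen. It gave 397 genes lower than C1q macrophages, and 66 higher and 198 lower than monocytes, and reversed Itgax (-0.36), Spic (1.74) and Rsad2 (1.56). Leaving out macrophages or monocytes with neutrophil markers was also chosen after the data were seen. The causes were not tested.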
